A study of Xenopus laevis with 8 samples.

Results

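Between the late blastula and the early gastrula, 117 of the 51017 gene IDs counted in Xenopus laevis animal caps went down to a small remainder of their level. They were chosen by their own readings: at least 20 CPM (counts scaled to a library total of 1000000) in both stage 9 libraries and, within each of the letters A and B, a stage 10.5 CPM of at most 1/12 of the stage 9 CPM. These thresholds were met by 126 IDs, and 9 of them were left out by symbol: cpeb1.L, cpeb1.S, btg4.L, btg4.S, btg3.S, zfp36l2.2.L, zfp36l2.1.S, ccna1.L and foxi2.S. At least 20 CPM in both stage 9 libraries was reached by 9585 IDs, so 9468 served as the other genes that could have qualified. The chosen genes are called fast-cleared below, as a name for the rule.

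The animal cap is the roof of the blastula, a sheet of pluripotent ectoderm that turns into epidermis when cultured alone. All samples were untreated wild-type explants, cut from stage 8 embryos and kept in saline until stage 9 (late blastula), 10.5 (early gastrula), 11.5 or 12.5 (late gastrula). Each stage has 1 library of letter A and 1 of letter B, 8 in all, from poly-A selected RNA. The total counts lay between 33170889 and 45511790 per library. The 20 CPM required at stage 9 stood for 878 counts in stage 9 A and 910 in stage 9 B. Nothing in the labels says how many animals or explants a library holds or what a letter stands for, so p-values measure the spread between these libraries only.

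An animal egg is loaded with maternal messenger RNA that directs the first cell divisions, before the embryo transcribes its own genome. In Xenopus zygotic transcription starts at the mid-blastula transition, and maternal messages are then shortened at their poly-A tails and degraded. Xenopus laevis is an allotetraploid, and many of its genes are present as 2 copies, called homeologs, on the L and S subgenomes. The earliest library is from stage 9, after zygotic transcription has begun, so whether a gene's RNA was laid down in the egg was not measured. Poly-A selection also means that loss of the tail and loss of the RNA cannot be told apart, nor can fewer cells with a transcript and less of it per cell. CPM is not divided by transcript length, and levels are compared here between stages and not between genes.

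The tissue label was checked against markers. Ectoderm and epidermis markers (27 IDs) summed to 17772 and 13775 CPM at stage 12.5 (A and B), against 2470 and 2420 CPM at stage 9. The 18 endoderm and mesoderm IDs summed to 63.5 and 53.6 CPM at stage 9, 43.6 and 83.7 CPM at stage 10.5, 29.3 and 31.8 CPM at stage 11.5, and 20.9 and 23.8 CPM at stage 12.5, with gsc.L, gata4.L, gata4.S, t.L and mixer.S at 0 in at least 1 library. The higher sum in stage 10.5 B includes t.S (brachyury), at 28.8 CPM there and 5.22 CPM in stage 10.5 A, and its part in the first interval was not tested. Germ plasm and vegetal RNAs (17 IDs) summed to 255 and 323 CPM at stage 9 and to 127 and 243 CPM at stage 12.5. Of these, vegt.S had 9.75 CPM in stage 12.5 A and 76.9 CPM in stage 12.5 B. Neural markers (10 IDs), most of it sox3, summed to 954 and 954 CPM at stage 9 and to 576 and 677 CPM at stage 12.5. Both sox3 copies ended lower, while every other neural ID was higher at stage 12.5 than at stage 9 in both letters. For example, elavl3.L went from 0.797 and 0.879 CPM at stage 9 to 50.8 and 69.1 CPM at stage 12.5. ncam1.L went from 0.774 and 0.835 CPM to 26.0 and 22.7 CPM, and otx2.L from 0.0455 and 0.0879 CPM to 30.2 and 10.1 CPM. None of these markers was fast-cleared, but few could have been. At least 20 CPM in both stage 9 libraries was reached by 11 ectoderm and epidermis IDs and 4 germ plasm and vegetal IDs. It was reached by 2 neural IDs and 0 endoderm and mesoderm IDs. With 117 of all 9585 such IDs fast-cleared, these lists are too short to show a lower share.

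Together the fast-cleared genes held 1.16% of all counts in stage 9 A and 1.29% in stage 9 B. They summed to 11551 and 12915 CPM at stage 9 (A and B), 595 and 744 CPM at stage 10.5, 716 and 428 CPM at stage 11.5, and 295 and 321 CPM at stage 12.5. The sum at stage 12.5 was 2.55% of the stage 9 sum in A and 2.49% in B, while the 9468 other genes still held 91.7% and 92.0% of theirs. The size of the first interval's change was fixed by the rule itself.

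The first interval is given as a description. The median share of stage 9 CPM left at stage 10.5 was 5.42% in A and 6.27% in B for the fast-cleared genes, against 67.6% and 74.2% for the other genes. The largest share was 8.32% in A and 8.30% in B, set by the threshold, and the smallest was 1.3% in A and 1.76% in B. edgeR's quasi-likelihood test by stage called all 117 lower at stage 10.5 than at stage 9, against 23.3% of all 28490 genes tested, but the rule had used this contrast and nothing is read from it. All 117 passed the filter on low counts, and the lowest count of any of them in any library was 6.

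The threshold cut through a continuous range. Just inside it were snx13.L, LOC108711716 and LOC108699328, whose smaller drop was 12.02-fold, 12.02-fold and 12.05-fold. Just outside were ikzf2.L and sun1.S at 11.99-fold each and eif2ak3.S at 11.97-fold. The members closest to the lower limit on stage 9 level were ccdc69.S, LOC108697406 and arhgap20.S, with 20.7, 20.8 and 21.2 CPM in their lower stage 9 library.

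The rule took stage 9 high and stage 10.5 low, so shares of the stage 9 level and changes from stage 10.5 at the later stages still rest in part on libraries it used, and are given as a description. The median share of stage 9 CPM left at stage 11.5 was 4.91% in A and 3.55% in B, and at stage 12.5 it was 2.33% in A and 2.37% in B. From stage 10.5 to 11.5 the libraries differed: 109 of 117 genes were lower at stage 11.5 in B, but 61 of 117 in A. The other genes were lower at stage 11.5 in 77.4% of cases in B and 68.0% in A.

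**Figure D1:**
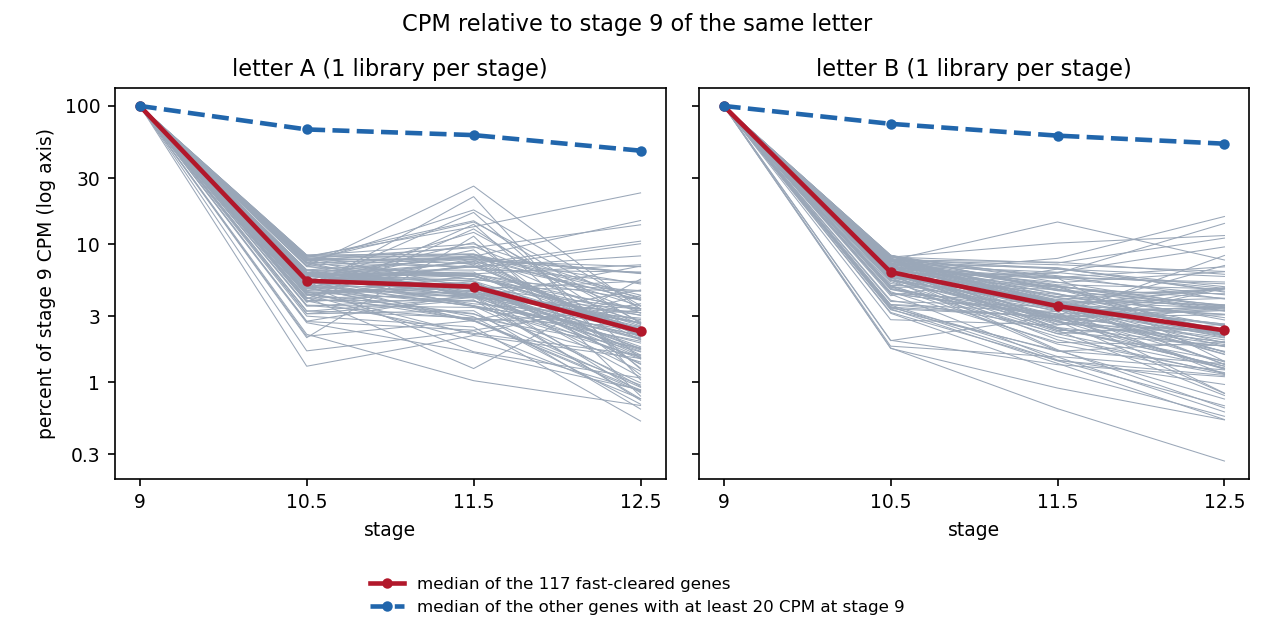
Percent of the stage 9 CPM of the same letter (log axis) against stage, for letters A and B. Each grey line is 1 of the 117 fast-cleared genes, the solid line is their median and the dashed line is the median of the 9468 other genes with at least 20 CPM at stage 9. The solid line ends at 2.33% in A and 2.37% in B, the dashed line at 47.4% and 53.3%.

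By function, 78 of the 117 had a symbol whose product has a textbook role, and 39 did not. The role groups were formed after the members were known. Of the 117, 32 have only a LOC symbol in the authors' table, and for 14 of these RefSeq gives another name. The group names below serve for order and were not tested for enrichment.

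Genes of meiosis, the spindle and microtubules made up 12 of the 117 and, summed, the most counts of any role group at stage 9. Their sum was 1557 and 2084 CPM at stage 9 (A and B), 76.5 and 102 CPM at stage 10.5, 107 and 52.0 CPM at stage 11.5, and 32.1 and 38.2 CPM at stage 12.5. Several belong to the machinery of the egg. fbxo43 encodes Emi2, the inhibitor of the anaphase-promoting complex that holds the Xenopus egg in metaphase of the second meiotic division until fertilization. ccnb5 is a B-type cyclin, of the family that activates Cdk1.

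ccnb5.L was among the most depleted: it had 283 and 440 CPM at stage 9 (A and B), 5.94 and 7.73 CPM at stage 10.5, 32.2 and 3.99 CPM at stage 11.5, and 2.24 and 2.35 CPM at stage 12.5. Its stage 11.5 A value stood above both stage 10.5 values, and its other 5 values after stage 9 lay below 8 CPM. fbxo43.S had 112 and 166 CPM at stage 9, 3.38 and 10 CPM at stage 10.5, 2.82 and 2.84 CPM at stage 11.5, and 0.588 and 1.08 CPM at stage 12.5, with both stage 12.5 libraries under both of stage 11.5. At stage 12.5 it kept 0.523% and 0.651% of its stage 9 level.

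The spindle members cover several layers of microtubule nucleation and organization. ssx2ip encodes a centrosome and spindle protein known from Xenopus eggs, tubg1 encodes gamma-tubulin, and tubgcp3 a subunit of the gamma-tubulin complex that nucleates microtubules. haus4 encodes a subunit of augmin, which nucleates microtubules along existing ones, and camsap1 a protein that binds microtubule minus ends. map4 encodes a microtubule-associated protein, dync1li2 a light intermediate chain of dynein, and ccdc69 a regulator of the central spindle. ssx2ip.L had 459 and 584 CPM at stage 9, 28.6 and 37.8 CPM at stage 10.5, 26.9 and 17.2 CPM at stage 11.5, and 12.1 and 13.0 CPM at stage 12.5. tubgcp3.L had 75.3 and 85.2 CPM at stage 9, 4.70 and 6.27 CPM at stage 10.5, 3.55 and 2.99 CPM at stage 11.5, and 1.55 and 1.36 CPM at stage 12.5. In both genes each later stage lay below the one before in both letters, and the stages did not overlap between 11.5 and 12.5.

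The 9 transcription factors and cofactors summed to 19.9 and 23.6 CPM at stage 12.5, against 972 and 1029 CPM at stage 9, and pou5f3.3.S gave the larger part of the stage 9 sums. pou5f3.3 is a maternal POU factor of Xenopus, related to the mammalian pluripotency factor OCT4. pou5f3.3.S had 541 and 569 CPM at stage 9, 28.3 and 41.6 CPM at stage 10.5, 55.6 and 22.0 CPM at stage 11.5, and 6.84 and 7.65 CPM at stage 12.5. Between stages 10.5 and 11.5 it was higher in A and lower in B, and both stage 12.5 values were the lowest of the 8.

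The other factors were klf4.L, a zinc-finger factor of pluripotent and epithelial cells, ets1.S and elk4.L of the ETS family, atf7.S, a bZIP factor, and both copies of nr3c2, the mineralocorticoid receptor. pygo1.L and sertad2.L are cofactors, pygo1 for beta-catenin. klf4.L had 24.0 and 35.9 CPM at stage 9, 0.663 and 1.41 CPM at stage 10.5, 1.04 and 0.88 CPM at stage 11.5, and 0.641 and 0.469 CPM at stage 12.5. ets1.S had 194 and 219 CPM at stage 9, 14.2 and 14.6 CPM at stage 10.5, 8.19 and 5.45 CPM at stage 11.5, and 3.95 and 3.99 CPM at stage 12.5. In A, klf4.L was about as low at stage 10.5 as at stage 12.5, while ets1.S was lower at every later stage in both letters.

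RNA control was represented by 5 genes, with 7.93 and 7.09 CPM at stage 12.5, against 344 and 366 CPM at stage 9. ago1.L encodes an Argonaute protein, the carrier of microRNAs, cpeb3.S a relative of the cytoplasmic polyadenylation factor CPEB1, dhx35.S a DEAH-box helicase and wdr6.L a partner of a tRNA methyltransferase. LOC100137619, which RefSeq names btg5.1.L, stayed in because the rule read the authors' symbols. It had 122 and 105 CPM at stage 9, 2.71 and 1.85 CPM at stage 10.5, 1.25 and 0.674 CPM at stage 11.5, and 0.828 and 0.282 CPM at stage 12.5. Its mean share left at stage 12.5, 0.473%, was the lowest of the 117.

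DNA repair and DNA helicases gave 4 genes, among them the RecQ helicase blm.L, helb.L and pif1.L. pif1.L had 247 and 294 CPM at stage 9, 10.9 and 12.9 CPM at stage 10.5, 12.1 and 9.12 CPM at stage 11.5, and 11.2 and 10.5 CPM at stage 12.5. blm.L had 68.0 and 74.2 CPM at stage 9, 4.40 and 5.54 CPM at stage 10.5, 4.41 and 4.31 CPM at stage 11.5, and 4.27 and 3.82 CPM at stage 12.5. In A both genes stayed close to their stage 10.5 level, while in B blm.L was lower at each later stage and pif1.L was lower at stage 11.5 than at stage 10.5. The stage 11.5 and 12.5 values overlapped in pif1.L and were apart by a small margin in blm.L.

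The ubiquitin system gave 8 genes, with 21.7 and 26.1 CPM at stage 12.5, against 843 and 953 CPM at stage 9. They are the F-box proteins fbxo30.L and fbxo33.L, the ligases mylip.S, trim2.L and LOC108709704 (rnf149.S in RefSeq), the adaptors of cullin 3 ligases spopl.S and LOC108700169 (klhl13.S in RefSeq), and fam63b.L, a deubiquitinase. fbxo30.L had 72.8 and 108 CPM at stage 9, 1.57 and 3.40 CPM at stage 10.5, 2.03 and 1.29 CPM at stage 11.5, and 0.694 and 0.610 CPM at stage 12.5. mylip.S, the ligase that targets the LDL receptor, had 251 and 280 CPM at stage 9, 14.7 and 12.6 CPM at stage 10.5, 12.4 and 5.42 CPM at stage 11.5, and 2.72 and 5.14 CPM at stage 12.5. In both, the stage 12.5 libraries were under both stage 11.5 libraries, and by little for mylip.S in B.

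Signalling gave 12 genes, with 24.5 and 25.6 CPM at stage 12.5, against 663 and 760 CPM at stage 9. Among them were prkch.L, a protein kinase C, sik2.L, a salt-inducible kinase, pik3cb.L, a catalytic subunit of PI3 kinase, akap10.L, an anchor of protein kinase A, socs1.S, an inhibitor of cytokine signalling, and both copies of the phosphatase gene ptpn21. prkch.L had 111 and 110 CPM at stage 9, 5.46 and 7.53 CPM at stage 10.5, 4.59 and 4.02 CPM at stage 11.5, and 1.90 and 1.83 CPM at stage 12.5. pik3cb.L had 68.5 and 62.4 CPM at stage 9, 3.68 and 4.24 CPM at stage 10.5, 5.19 and 3.58 CPM at stage 11.5, and 4.70 and 4.27 CPM at stage 12.5. prkch.L went on declining, while pik3cb.L overlapped between stages 11.5 and 12.5.

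The group of GTPase regulators, polarity and adhesion held 9 genes, with 19.1 and 28.6 CPM at stage 12.5, against 825 and 832 CPM at stage 9. Both copies of kank1, a regulator of the actin cortex and focal adhesions, and of the GTPase activator arhgap20 were in it, with ralgapb.L, a subunit of the Ral GTPase activator, and mpp5.S (Pals1), a part of the apical Crumbs polarity complex. LOC397842 is itga5.S in RefSeq, the integrin subunit that with beta 1 integrin binds fibronectin. LOC397842 had 80.7 and 110 CPM at stage 9, 4.37 and 9.08 CPM at stage 10.5, 4.54 and 5.16 CPM at stage 11.5, and 2.75 and 3.1 CPM at stage 12.5. Its other copy, itga5.L, had 297 and 377 CPM at stage 9, 67.9 and 88.5 CPM at stage 10.5, 64.6 and 86.1 CPM at stage 11.5, and 59.5 and 73.0 CPM at stage 12.5.

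Membrane traffic, transporters and heparan sulfate enzymes came to 9 genes, with 26.7 and 30.7 CPM at stage 12.5, against 915 and 975 CPM at stage 9. They include ndst2.L and hs3st1.S, which put sulfate on heparan sulfate chains, sec24b.S of the COPII coat, slc35a1.L, the Golgi carrier of CMP-sialic acid, and LOC108707280 (slc30a5.S in RefSeq), a zinc transporter. ndst2.L had 199 and 182 CPM at stage 9, 11.7 and 11.4 CPM at stage 10.5, 9.36 and 10.3 CPM at stage 11.5, and 10.7 and 7.81 CPM at stage 12.5. After stage 10.5 its values overlapped between stages.

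Mitochondria, the peroxisome and metabolism gave 8 genes, with 18.1 and 15.8 CPM at stage 12.5, against 697 and 773 CPM at stage 9. They include cat.2.L, a catalase, hprt1.L of purine salvage, slc25a37.L, the mitochondrial iron importer mitoferrin, and letm2.S, a relative of the mitochondrial ion exchanger LETM1. letm2.S had 211 and 210 CPM at stage 9, 13.6 and 15.8 CPM at stage 10.5, 9.10 and 7.83 CPM at stage 11.5, and 4.54 and 3.80 CPM at stage 12.5. Its stages did not overlap in these 8 libraries.

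The smallest group, 2 genes of the cilium basal body and transition zone, went the other way late on. bbs9.L, a subunit of the BBSome that carries cargo in cilia, had 25.6 and 29.5 CPM at stage 9, 1.57 and 2.08 CPM at stage 10.5, 2.09 and 1.85 CPM at stage 11.5, and 3.79 and 2.82 CPM at stage 12.5. b9d2.L, of the ciliary transition zone, had 33.9 and 47.2 CPM at stage 9, 2.62 and 2.59 CPM at stage 10.5, 1.38 and 1.38 CPM at stage 11.5, and 2.35 and 2.28 CPM at stage 12.5. In both genes the stage 12.5 libraries lay above those of stage 11.5, but neither passed the test: with edgeR and the letter as a block, the adjusted p was 0.0967 for bbs9.L and 0.0779 for b9d2.L.

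Among the 10 members with the most CPM at stage 9, 4 had no role assigned: prr14l.L, LOC108708645, c1orf116.L and LOC108717918. prr14l.L had 405 and 415 CPM at stage 9, 15.5 and 22.9 CPM at stage 10.5, 18.7 and 7.01 CPM at stage 11.5, and 3.39 and 5.66 CPM at stage 12.5. The remaining 6 were pou5f3.3.S, ssx2ip.L, ccnb5.L, pif1.L, mylip.S and fbxo33.L. fbxo33.L had 257 and 264 CPM at stage 9, 14.0 and 21.9 CPM at stage 10.5, 9.49 and 12.1 CPM at stage 11.5, and 7.48 and 9.55 CPM at stage 12.5.

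Few genes kept a larger remainder. tanc1-like.S kept 23.5% of its stage 9 CPM at stage 12.5 in A and 15.8% in B, bbs9.L 14.8% and 9.54%, atf7.S 10.5% and 11.5%, elk4.L 6.18% and 14.1%, and LOC108710177 13.8% and 4.91%. Those 5 genes, pik3cb.L and LOC108700079 are the 7 members, of 117, that were higher at stage 12.5 than at stage 10.5 in both letters. Among the 9468 other genes 1582 were. The rule had used the stage 10.5 libraries, so these counts are a description. At the other end, LOC100137619, fbxo43.S, ccnb5.L, fbxo30.L and LOC108710103 kept the smallest mean shares, between 0.268% and 0.953% in a single library.

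Stage 12.5 against stage 11.5 is the step whose libraries the choice of genes did not use, and the only one whose test is read as a result for the fast-cleared genes. Its tests took the spread from all 8 libraries, so their p-values still rest in part on libraries the rule used. Both stage 12.5 libraries lay below both stage 11.5 libraries for 79 of the 117 genes (67.5%), against 46.4% of the other genes and 30.1% of all genes tested. The median log2 fold change of the fast-cleared genes was -0.69, against -0.08 for the other genes and 0.00 for all genes tested. The median ratio of stage 12.5 to stage 11.5 CPM was 0.465 in A and 0.694 in B, against 0.799 and 0.895 for the other genes. No set of other genes matched for their fall at the first step was set beside the members. These values therefore do not show that a further decline is particular to the fast-cleared genes.

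Taken gene by gene, the by-stage test did not resolve these differences. With p-values adjusted by Benjamini and Hochberg's method, edgeR's quasi-likelihood test called 0 of the 117 genes, as it called 0 (0%) of the 28490 tested, at an adjusted p under 0.05. Unadjusted p-values under 0.05 were given to 56 of the 117 members in the lower direction and 4 in the higher. Among the 9468 other genes 1610 had such a p-value in the lower direction and 728 in the higher, and among all 28490 tested genes 4246 had one. The smallest adjusted p was 0.0960 among the members and 0.0889 among all genes.

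Libraries of the same letter deviated together, and with the letter as a block the count changed. The blocked edgeR test called 15 of the 117 lower at stage 12.5 and 1 higher, against 2.37% of all genes tested lower and 2.21% higher. Among the other genes with at least 20 CPM at stage 9 it called 6.21% lower. Leaving out stage 11.5 A leaves 1 library at that stage, so only the effect size is given. The median log2 fold change of the members with the block was then -0.34, against -0.72 with all libraries. The authors' deposited table for this step called 3 of the 100 members that have an adjusted p lower, among them pou5f3.3.S, and 0 higher, against 0.978% of all its genes lower and 2.53% higher. Of the other genes with at least 20 CPM at stage 9, 9456 have an adjusted p there, and it called 176 of these lower and 52 higher.

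The 15 genes lower with the block came from several roles. pou5f3.3.S had the largest change, a log2 fold change of -2.22 ± 0.37 (SE, n = 2 libraries per stage, edgeR with the block, adjusted p = 0.0230). Without stage 11.5 A its log2 fold change was -1.35. Of the spindle and egg group, fbxo43.S fell by 1.68 ± 0.35 (adjusted p = 0.0361), camsap1.L by 1.01 ± 0.21 (adjusted p = 0.0386) and tubgcp3.L by 1.01 ± 0.22 (adjusted p = 0.0448), all on the log2 scale. kank1 fell in both copies, kank1.S by 1.56 ± 0.25 (adjusted p = 0.0208) and kank1.L by 0.89 ± 0.17 (adjusted p = 0.0287) with edgeR and the block.

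Further calls were LOC108719892 at -1.70 ± 0.31, hs3st1.S at -1.43 ± 0.30, LOC108708627 at -1.18 ± 0.24, prkch.L at -1.05 ± 0.20, and sertad2.L at -1.02 ± 0.24. MGC85210 at -0.97 ± 0.21, LOC108699328 at -0.95 ± 0.22, LOC108711716 at -0.92 ± 0.19 and letm2.S at -0.85 ± 0.17 completed the 15. All 16 called genes kept their sign without stage 11.5 A, and the log2 fold changes of pou5f3.3.S, LOC108708627, camsap1.L and LOC108699328 were over 1.5 times smaller without it. With all libraries, LOC108708627 had 1.31 and 1.6 CPM at stage 12.5, against 4.72 and 2.76 CPM at stage 11.5.

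tanc1-like.S was the only gene called higher with the block, at 1.07 ± 0.22 (SE, log2, edgeR, adjusted p = 0.0347). It had 61.8 and 67.0 CPM at stage 9, 5.03 and 4.16 CPM at stage 10.5, 8.24 and 5.28 CPM at stage 11.5, and 14.5 and 10.6 CPM at stage 12.5. In each letter its level was lowest at stage 10.5 and higher at each of the 2 later stages. Its L copy had 75.1 and 67.9 CPM at stage 9, 7.63 and 8.21 CPM at stage 10.5, 11.5 and 8.03 CPM at stage 11.5, and 16.9 and 17.4 CPM at stage 12.5.

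**Figure D2:**
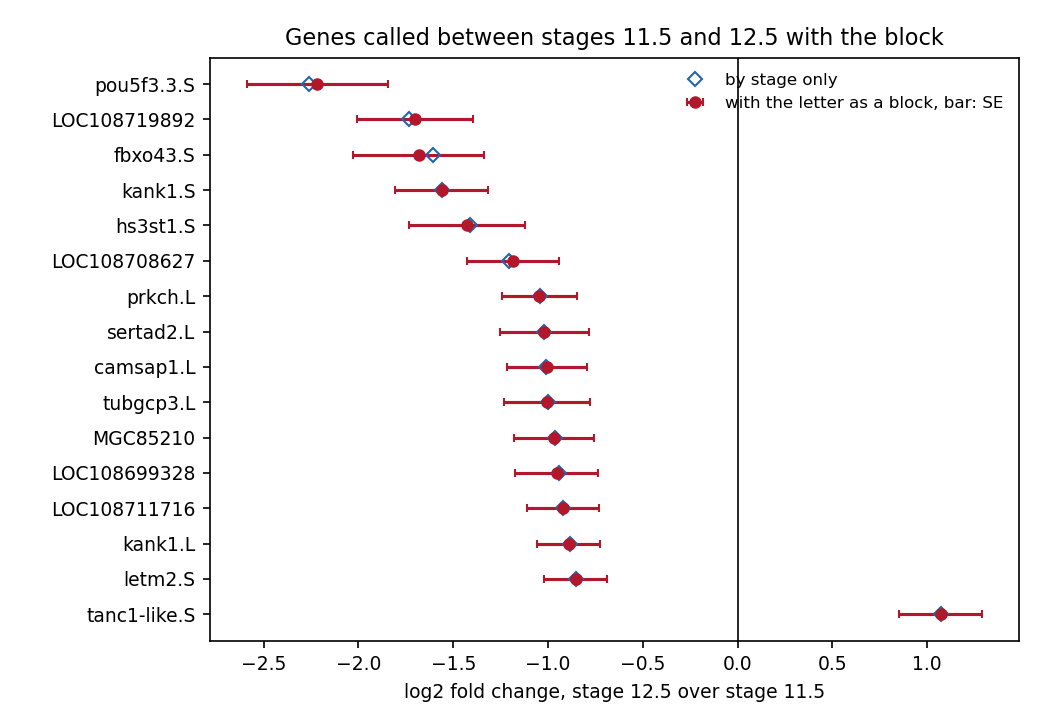
Log2 fold change of stage 12.5 over stage 11.5 for the 16 fast-cleared genes called with the letter as a block. Filled circles with bars are the blocked edgeR estimates ± SE, and open diamonds the by-stage estimates, which called none of them. pou5f3.3.S lies at -2.22 and tanc1-like.S at 1.07.

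Stage 11.5 A stood apart for part of the group. Its CPM was at least 4 times that of stage 11.5 B for 8 of the 117 genes (6.84%) but for 4 of the 9468 other genes (0.0422%). At least 2 times was reached by 23 of the 117 (19.7%) and by 109 of the other genes (1.15%). In the opposite direction, 0 of the 117 were at least 4 times higher in B, and 6 of the other genes were. At least 2 times higher in B were 3 of the 117 and 115 of the other genes. The 2 sets were not matched for level: the median CPM in stage 11.5 B was 2.61 for the fast-cleared genes and 37.9 for the other genes.

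The 8 genes were of several roles and included LOC108708645, ccnb5.L, cat.2.L, ccdc69.S and kiaa0922.S. LOC108708645 had 265 and 425 CPM at stage 9 (A and B), 12.6 and 14.4 CPM at stage 10.5, 58.3 and 5.81 CPM at stage 11.5, and 2.75 and 2.28 CPM at stage 12.5. cat.2.L had 82.4 and 93.2 CPM at stage 9, 5.7 and 5.79 CPM at stage 10.5, 21.6 and 3.17 CPM at stage 11.5, and 2.78 and 1.48 CPM at stage 12.5.

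In all 8, stage 11.5 A was above stage 10.5 A, and stage 12.5 A was back below it. The 4 other genes were cpeb1.L, cpeb1.S, LOC108701325 and aldh2.L. Both copies of cpeb1, which encodes the cytoplasmic polyadenylation factor of the oocyte, met the thresholds and were left out by symbol. cpeb1.L had 65.7 CPM in stage 11.5 A and 3.87 CPM in stage 11.5 B, and cpeb1.S had 73.3 and 4.37 CPM.

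Several measures of the 2 libraries were set beside this. The total counts were 38340337 in stage 11.5 A and 34106665 in stage 11.5 B. Summed marker levels in A and B were 11115 and 10662 CPM for ectoderm, 200 and 214 CPM for germ plasm and vegetal RNAs, 29.3 and 31.8 CPM for endoderm and mesoderm, and 649 and 807 CPM for neural genes. Their part in the result was not tested. None of the 8 was called at stage 12.5 against stage 11.5 by edgeR with or without the block, and without stage 11.5 A the by-stage log2 fold change of kiaa0922.S was 0.023, against -1.44 with all libraries.

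**Figure D3:**
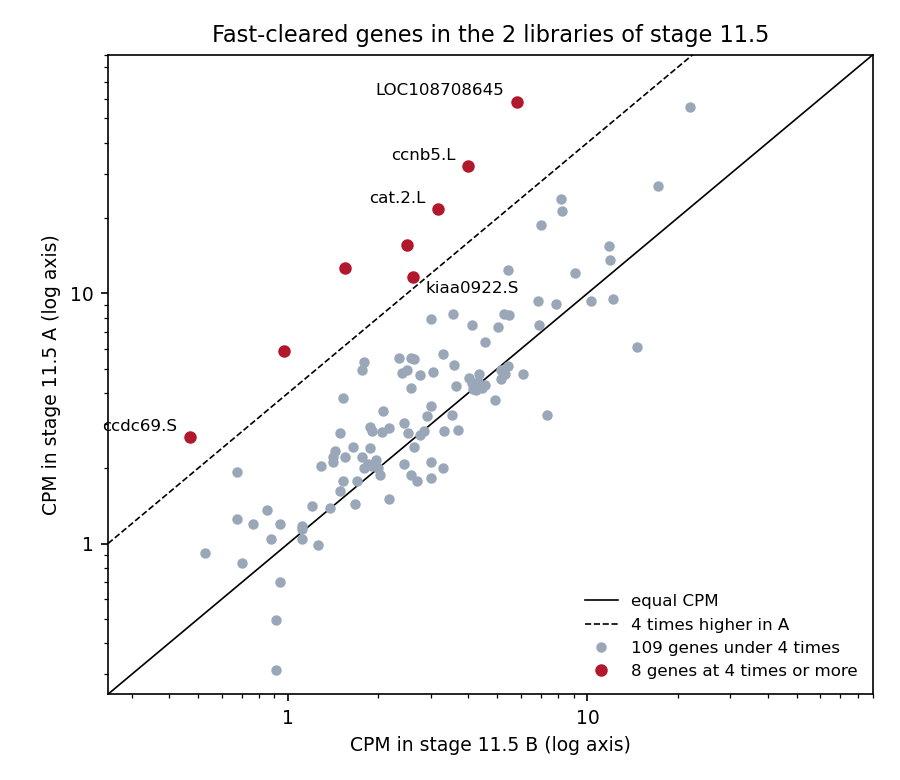
CPM in stage 11.5 A against CPM in stage 11.5 B (log axes) for the 117 fast-cleared genes. The solid line marks equal CPM and the dashed line 4 times higher CPM in A. The 8 genes drawn in red lie on or above the dashed line, some with their symbols, with LOC108708645 at 58.3 CPM in A and 5.81 CPM in B.

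Homeologs were paired where symbols in the authors' table share a stem and end in .L and .S, which placed 54 of the 117 genes in 47 pairs. In 7 pairs both copies were fast-cleared, among them arhgap20, fbxo43, kank1, nr3c2, ptpn21 and ssx2ip. In the other 40 pairs 1 copy was, the L copy in 20 and the S copy in 20. RefSeq names added 13 pairs, of which garem1 had both copies in the group. Of the members with an L or S ending, 59.3% end in .L, against 57.7% of the other genes.

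Among the pairs with both copies fast-cleared, kank1 and nr3c2 showed the same course in both copies. kank1.L had 240 and 245 CPM at stage 9, 10.3 and 15.8 CPM at stage 10.5, 4.77 and 6.07 CPM at stage 11.5, and 2.08 and 3.19 CPM at stage 12.5. kank1.S had 51.1 and 50.7 CPM at stage 9, 3.01 and 3.96 CPM at stage 10.5, 2.40 and 1.88 CPM at stage 11.5, and 0.614 and 0.680 CPM at stage 12.5. Both copies were lower at every later stage in both letters.

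nr3c2.L had 29.1 and 31.1 CPM at stage 9, 1.27 and 1.04 CPM at stage 10.5, 0.913 and 0.528 CPM at stage 11.5, and 0.267 and 0.235 CPM at stage 12.5. nr3c2.S had 29.9 and 28.2 CPM at stage 9, 1.51 and 1.80 CPM at stage 10.5, 0.496 and 0.909 CPM at stage 11.5, and 0.32 and 0.235 CPM at stage 12.5. Both copies of this receptor gene, too, were lower at each later stage in each letter.

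ssx2ip.S, the partner of ssx2ip.L above, had 149 and 154 CPM at stage 9, 6.48 and 5.37 CPM at stage 10.5, 4.17 and 2.58 CPM at stage 11.5, and 1.31 and 3.03 CPM at stage 12.5, so its stages 11.5 and 12.5 overlapped while those of the L copy did not. ptpn21.L had 41.5 and 45.7 CPM at stage 9, 1.69 and 3.54 CPM at stage 10.5, 1.77 and 2.70 CPM at stage 11.5, and 0.694 and 1.83 CPM at stage 12.5. ptpn21.S had 32.4 and 37.3 CPM at stage 9, 2.68 and 2.87 CPM at stage 10.5, 2.71 and 2.76 CPM at stage 11.5, and 1.15 and 2.25 CPM at stage 12.5. In ptpn21 the stage 12.5 libraries were both below those of stage 11.5 for the S copy only, and neither copy was called.

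The copies of fbxo43 parted late, with the block. fbxo43.L had 84.5 and 146 CPM at stage 9, 2.32 and 7.28 CPM at stage 10.5, 2.01 and 3.28 CPM at stage 11.5, and 3.12 and 3.82 CPM at stage 12.5. The L copy was higher at stage 12.5 than at stage 11.5 in each letter and did not pass the test (edgeR with the block, adjusted p = 0.279), while the S copy fell with the block. The log2 L to S ratio, each copy with 1 CPM added, was 1.46 ± 0.24 higher at stage 12.5 than at stage 11.5 (SE, limma with the block, adjusted p = 0.0208 over all pairs). By stage the adjusted p was 0.164.

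By stage, limma called 0 of the 45 member pairs with both copies tested, as it called 0 (0%) of all 4813 pairs. Unadjusted p-values under 0.05 were given to 9 of the 45 and to 593 of all 4813 pairs. With the block it called 3 of the 45, against 4.01% of all pairs. These were fbxo43, klf4 and spopl.

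klf4.S, the copy that was not fast-cleared, had 0.729 and 0.527 CPM at stage 9, 0.241 and 0.169 CPM at stage 10.5, 0.0782 and 0.117 CPM at stage 11.5, and 3.02 and 0.892 CPM at stage 12.5. Its stage 11.5 values rest on 3 and 4 counts. The klf4 ratio of L to S was lower at stage 12.5 than at stage 11.5, with a difference of -1.74 ± 0.31 (SE, log2, limma with the block, adjusted p = 0.0256; 0.234 by stage). spopl.L had 112 and 120 CPM at stage 9, 35.0 and 43.1 CPM at stage 10.5, 55.8 and 48.7 CPM at stage 11.5, and 55.3 and 65.4 CPM at stage 12.5. spopl.S had 81.8 and 104 CPM at stage 9, 5.28 and 8.18 CPM at stage 10.5, 4.93 and 5.16 CPM at stage 11.5, and 3.23 and 3.71 CPM at stage 12.5, and the log2 L to S ratio was 0.67 ± 0.15 higher at stage 12.5 than at stage 11.5 (SE, limma, adjusted p = 0.0471 with the block, 0.259 by stage).

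In the 40 pairs with 1 fast-cleared copy, the other copy had at least 5 CPM in both stage 9 libraries in 32. The fast-cleared copies kept a median of 6.33% of their stage 9 CPM at stage 10.5 in these pairs, and the other copies 14.2%, with a range of 3.72% to 171%. The rule fixed that the fast-cleared copy passed and that an eligible other copy did not, so the order of the 2 medians is no finding. The other genes as a whole kept a median of 71.1%.

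Most other copies were also strongly lower. At most 1/4 of the stage 9 CPM in both letters was left in 21 of the 32, and in 17 of the 25 whose other copy reached 20 CPM, against 11.2% of the other genes. edgeR by stage called 33 of the 38 tested other copies lower at stage 10.5 than at stage 9 and 0 higher, against the background of 23.3% lower. This step was used to choose their partners, and near-identical copies can share reads, so these counts are a description. The 23.3% covers tested genes of any stage 9 level and is not matched to these copies.

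For stage 12.5 against stage 11.5, 38 of the 40 pairs had both copies fitted. With the block, the median log2 fold change was -0.61 for the fast-cleared copies and -0.23 for the other copies of these 38 pairs, and without stage 11.5 A it was -0.27 and -0.07. The difference between the medians was not tested. The blocked edgeR test called 6 of the 38 other copies lower (15.8%) and 2 higher (5.26%), against 2.37% and 2.21% of all genes tested and 6.21% and 2.26% of the other genes with at least 20 CPM at stage 9.

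**Figure D4:**
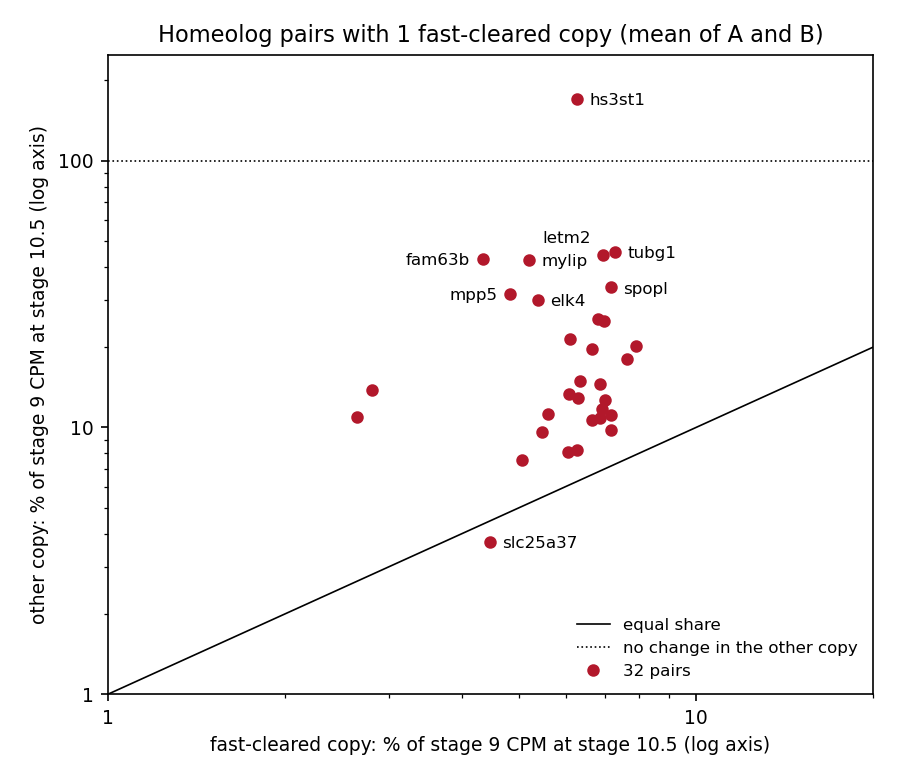
Percent of stage 9 CPM left at stage 10.5 (mean of A and B, log axes) in the other copy against the fast-cleared copy, for the 32 pairs whose other copy had at least 5 CPM in both stage 9 libraries. The solid line marks equal shares and the dotted line 100%. All points but slc25a37 lie above the solid line, up to hs3st1 at 171%.

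Among these 32 pairs, the 5 whose other copy kept the largest share were hs3st1, tubg1, letm2, fam63b and mylip. hs3st1.S had 38.6 and 39.8 CPM at stage 9, 1.93 and 3.01 CPM at stage 10.5, 1.15 and 1.11 CPM at stage 11.5, and 0.267 and 0.493 CPM at stage 12.5. hs3st1.L had 23.1 and 38.8 CPM at stage 9, 55.3 and 39.6 CPM at stage 10.5, 41.5 and 25.6 CPM at stage 11.5, and 28.5 and 13.4 CPM at stage 12.5. The L copy did not pass the test for the first interval (edgeR by stage, adjusted p = 0.284). It was the only other copy of the 32 above its stage 9 level in both letters.

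tubg1.L had 46.9 and 73.0 CPM at stage 9, 3.44 and 5.28 CPM at stage 10.5, 8.29 and 3.55 CPM at stage 11.5, and 1.68 and 2.96 CPM at stage 12.5. tubg1.S had 70.3 and 68.5 CPM at stage 9, 28.0 and 35.0 CPM at stage 10.5, 25 and 27.3 CPM at stage 11.5, and 19.5 and 25.3 CPM at stage 12.5. At stage 10.5, tubg1.L kept 7.32% and 7.24% of its stage 9 level, and tubg1.S kept 39.9% and 51.2%. letm2.L kept 37.3% and 51.0% of its stage 9 level at stage 10.5, fam63b.S 45.7% and 40.3%, and mylip.L 49.2% and 36.0%.

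The smallest shares in the other copy were those of slc25a37.S (3.34% and 4.10%), rspry1.L (5.11% and 9.93%), ndst2.S (7.73% and 8.48%), pou5f3.3.L (6.53% and 9.90%) and sik2.S (8.86% and 10.4%). slc25a37.S passed the fold but had 11.8 and 15.1 CPM at stage 9, under the 20 CPM required. pou5f3.3.L passed it in A and missed it in B. It had 1001 and 983 CPM at stage 9, 65.4 and 97.3 CPM at stage 10.5, 106 and 46.6 CPM at stage 11.5, and 14.0 and 15.7 CPM at stage 12.5, the same shape as pou5f3.3.S.

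**Figure D5:**
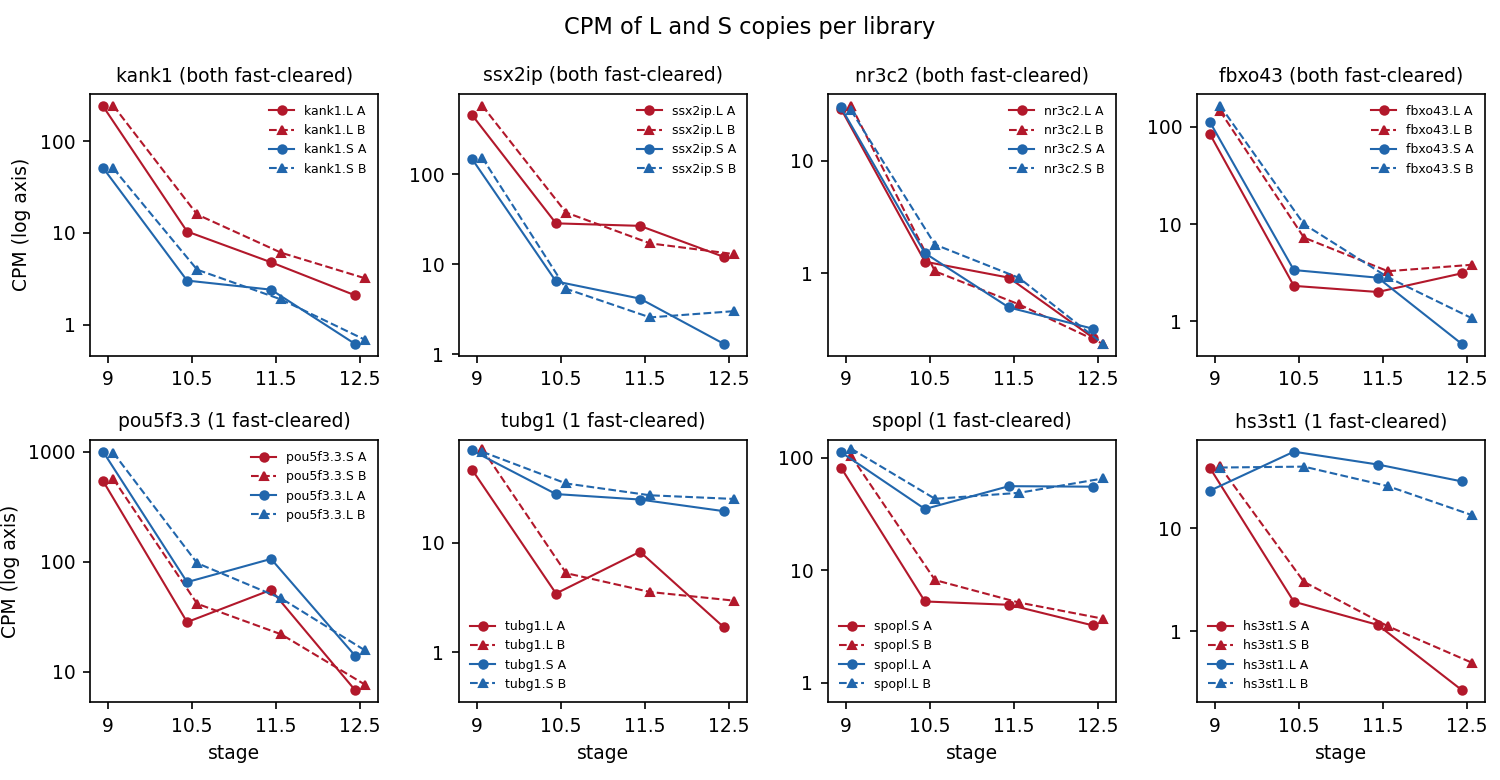
CPM (log axis) of the L and S copies of 8 genes at each stage, with solid lines and circles for letter A and dashed lines and triangles for letter B. Upper row: both copies fast-cleared, the L copy in red and the S copy in blue. Lower row: the fast-cleared copy in red and the other copy in blue. The pou5f3.3 copies run in parallel, while hs3st1.S ends at 0.267 and 0.493 CPM and hs3st1.L at 28.5 and 13.4 CPM.

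In 8 pairs the other copy had under 5 CPM in at least 1 stage 9 library. mob3c.L, dhx35.L and trim2.S had at most 0.264 CPM at stage 9, against 45.0 CPM or more for their fast-cleared partners in both letters. socs1.L, with 0.706 and 1.58 CPM at stage 9, had 1.42 and 2.08 CPM at stage 10.5, 4.25 and 3.23 CPM at stage 11.5, and 8.25 and 3.68 CPM at stage 12.5. Its partner socs1.S had 27.5 and 49.4 CPM at stage 9, 1.51 and 3.23 CPM at stage 10.5, 1.41 and 1.2 CPM at stage 11.5, and 0.374 and 0.704 CPM at stage 12.5. At stage 9 the S copy held nearly all counts of the pair, and at stage 12.5 the L copy held most.

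Among pairs made with RefSeq names, 2 more had partners that did not go down together. cat.2.L is paired with LOC108715227, which had 41.0 and 45.6 CPM at stage 9, 41.2 and 49.0 CPM at stage 10.5, 43.3 and 38.3 CPM at stage 11.5, and 24.5 and 31.4 CPM at stage 12.5. LOC108697886 (arhgap33.S) had 4.61 and 3.85 CPM at stage 10.5, against 59.2 and 50.5 CPM at stage 9, while LOC108695962, its L copy by RefSeq name, had 28.0 and 35.5 CPM at stage 10.5, against 3.55 and 5.14 CPM at stage 9. KIAA0922 is an older symbol of human TMEM131L, and RefSeq names LOC108699328 tmem131l.L, but the tables used here do not pair kiaa0922.S with it.

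Lists of egg genes, decay factors and early zygotic genes, chosen with earlier results of these data known, were set beside the group. Of the egg and oocyte RNAs, 39 IDs had at least 20 CPM in both stage 9 libraries and 3 of these (7.69%) were fast-cleared, against 117 of all 9585 such IDs: ccnb5.L, fbxo43.L and fbxo43.S. Both copies of fbxo43 are counted, and because of how the list was chosen this share is a description only. Of the 68 IDs tested, 21 (30.9%) were called lower and 11 (16.2%) higher at stage 10.5 than at stage 9 (edgeR by stage), against 23.3% lower and 25% higher among all genes tested. That background covers genes of any stage 9 level, and no share matched for level is given. mos.L, the kinase of cytostatic factor, had 22.1 and 22.4 CPM at stage 10.5, against 192 and 162 CPM at stage 9, short of the threshold. With the block, 6 of the 68 (8.82%) were called lower and 0 higher at stage 12.5 than at stage 11.5, against 2.37% and 2.21% of all genes tested and 6.21% lower among the other genes with at least 20 CPM at stage 9.

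Of the mRNA decay and maternal clearance factors, 73 IDs had at least 20 CPM in both stage 9 libraries and ago1.L alone was fast-cleared (1.37%, near the share of all such IDs), beside btg4.L and btg4.S, which were left out by symbol. Of the 84 tested, 39 (46.4%) were called lower and 16 (19%) higher at stage 10.5 than at stage 9, beside the same 23.3% and 25%. Those background shares are not matched for stage 9 level, and 73 IDs of the list had at least 20 CPM there. tnrc6c encodes a partner of Argonaute proteins, and its L copy passed the fold in A and missed it by little in B. tnrc6c.L had 3.83 and 5.62 CPM at stage 10.5, against 54.7 and 63.8 CPM at stage 9, and tnrc6c.S had 4.55 and 7.31 CPM, against 66.1 and 46.7 CPM. With the block, 3 of the 84 (3.57%) were called lower and 0 higher at stage 12.5 than at stage 11.5. The 3.57% lay between 2.37% of all genes tested and 6.21% of the other genes with at least 20 CPM at stage 9. Of 51 tested IDs for early zygotic genes, 7 (13.7%) were called lower and 29 (56.9%) higher at stage 10.5 than at stage 9. The background, not matched for stage 9 level, was again 23.3% lower and 25% higher. Of the 14 early zygotic IDs with at least 20 CPM in both stage 9 libraries, 0 were fast-cleared. With 117 of all 9585 such IDs fast-cleared, 14 are too few to show a lower share.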

How the data were processed

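The authors deposited raw counts per gene and library, without normalization. They also deposited DESeq2 tables of log2 fold changes with p-values for successive stages. The submitters' processing notes name FastQC 0.11.5, STAR 2.6.0b-1, featureCounts 1.6.3 and DESeq2 1.22.1; the genome build is not given in the sources used here, so no coordinates are printed. Per the labels, libraries were unstranded, so overlapping, antisense and near-identical genes are uncertain.

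CPM used raw library totals. Counts were fitted in R 4.3.3 with edgeR 4.0.16 (glmQLFit, glmQLFTest) by stage over all 8 libraries, with TMM scaling (factors 0.818 to 1.12), filterByExpr (28490 genes kept) and a call at a Benjamini-Hochberg adjusted p under 0.05. Standard errors came from the F statistic. Homeolog ratios used limma 3.58.1 with 1 CPM added. Fits were tested on simulated data.

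Letters pair the libraries: deviations from the stage mean correlated within a letter at all 6 pairs of stages (Pearson r 0.374 to 0.597, across genes), so the fit with the letter as a replicate block is given where a call changed.

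Members, role groups and lists were chosen with earlier results of these data known. Genes were named by stage 9 level, share left at stage 12.5, calls, distance to the thresholds, homeolog behaviour and textbook role. RefSeq names are from assembly Xenopus_laevis_v10.1. Alternatives were other scalings, no filter, DESeq2 1.42.0, left-out libraries and other rule thresholds. Some single-gene results are not reported here; the genes remain in the counts and medians.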

Additional observations from a re-analysis of the deposited data

How the results depend on the processing

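The median log2 fold change of the fast-cleared genes at stage 12.5 against stage 11.5 stayed below 0 in all settings run, from -0.88 to -0.34. It was -0.41 without stage 11.5 A by stage, and -0.34 with the block and without that library. Scaling by library size alone moved the median of all genes to -0.16 and that of the members to -0.85. How many members were called depended on the model. By stage it was 0, 21 with no filter on low counts, 30 with DESeq2's Wald test, and 0 to 4 when 1 library was left out, with 4 reached without stage 11.5 B. With the replicate block it was 16, then 30 with library size only, 14 with DESeq2 size factors, 54 with no filter and 45 with DESeq2. Apart from the first, these blocked settings and the blocked fit without stage 11.5 A were chosen after seeing the data. The cause was not tested. Outside the main by-stage and blocked fits, the share of all genes called is not given here. The counts of members therefore describe the settings and are no result about the members. The ratio test called 3 pairs with the replicate block and 0 in the other settings.

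The number of genes the rule takes moved to 315 at 1/8, 48 at 1/16 and 228 in letter A alone, and lay between 84 and 154 in the other settings. Pairs with both copies went from 7 to 3 at 40 CPM, 24 at 1/8, 2 at 1/16 and 14 in letter A alone. Of 378 values of single genes reported under alternatives to the by-stage test, which called none of them, 1 changed sign, that of kiaa0922.S without stage 11.5 A, which ranged from -2.15 to 0.023 when 1 library was left out. Another 256 kept sign and side of the threshold, and 121 kept sign and were called. For the 16 genes called with the block, the fit without stage 11.5 A leaves 1 library at that stage. Only effect sizes are given for that fit. The smallest change called with the block was 0.85 on the log2 scale, in letm2.S, and with 2 libraries a stage none of the smaller changes among the members was called.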
